A study of Oryza sativa with 4 samples.

Results

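This account covers 55 rice genes with an OsGRF6-GFP peak that the authors placed upstream of their start, and none placed over their gene model. They come out of 175 loci that the authors placed at peaks and 55986 loci in the expression table. They were chosen from the peak table as RGAP loci (names that begin with LOC_Os) with a placement within 1 kb or within 3 kb upstream and no placement over the gene. Of 7 loci left out by name, 4 met the same placement. OsGRF6 is a growth-regulating factor, and the study asks which genes it regulates in the rice inflorescence. ChIP sequencing compared callus of p35S:GRF6-GFP transgenic lines, precipitated with an anti-GFP antibody, with input chromatin of the same lines, with 1 library each. Callus is cultured undifferentiated tissue, and the 35S promoter drives the fusion strongly in most cell types, so a peak shows where the overproduced fusion lay in callus and not where the native protein lay in a panicle. RNA sequencing compared panicles of p35S:MIM396 plants, which carry a decoy target that sequesters the microRNA miR396, with panicles of the wild-type line Yutai B, both at the stage when secondary branches form, with 1 library each.

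Growth-regulating factors are plant transcription factors that bind DNA through a WRC domain, join GRF-interacting coactivators through a QLQ domain, and are known for promoting cell proliferation in young organs. The microRNA miR396 cleaves the transcripts of many of them, so a miR396 decoy is a usual way to raise their level. In rice, members of this family are known to affect panicle branching and grain size. A transcription factor bound upstream of a gene can act on that gene, on a neighbour or on neither, and a peak by itself does not tell which.

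The panicle libraries differed widely, which touches every expression value below. The deposited read values correspond to 13125593 reads in the MIM396 library and 16337528 reads in the wild-type library. Of 12 loci listed as panicle and meristem genes, 9 in the MIM396 library and 4 in the wild-type library reached 1 FPKM (read fragments per length of locus and size of library), and 4 had 0 reads in the wild-type library. Their summed level was 941 FPKM in the MIM396 library and 123 FPKM in the wild-type library. A single locus made up most of each sum, with 631 FPKM in the MIM396 library and 111 FPKM in the wild-type library. Of 11 loci listed as photosynthesis genes of leaf tissue, 8 in the MIM396 library and 11 in the wild-type library reached 1 FPKM. Their summed level was 37.7 FPKM in the MIM396 library and 72820 FPKM in the wild-type library, with single loci between 904 and 17544 FPKM in the wild-type library. The identities of both lists rest on general knowledge, not on these files. The library labelled wild type thus lacked several of the panicle markers and held leaf-type transcripts at a high level, and the part of this difference in the results below was not tested. In tissue samples, fewer cells of a type and less RNA per cell cannot be told apart. With 1 library in each group, no genotype difference has a replicate check, and the results cannot be given without either library.

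The peaks of these genes lay from directly at the gene start to nearly 3 kb away. The 55 genes had 52 peaks, because 3 peaks each served a pair of them. The peaks were 864 to 2141 bp wide, with a median of 1182 bp. For 23 genes the authors placed the peak within 1 kb upstream, with gaps of 0 to 940 bp between peak edge and gene start and a median of 451 bp. For the other 32 genes the placement was within 3 kb only, with gaps of 1119 to 2984 bp and a median of 1961.5 bp. In 19 cases the far edge of the peak lay more than 3000 bp from the gene start, so a placement within 3 kb means that the peak reaches into this window. The side on which the peak lies gives the direction of the gene, rightward for 23 genes and leftward for 32. The table names no genome build, so the coordinates below carry none.

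**Figure D1:**
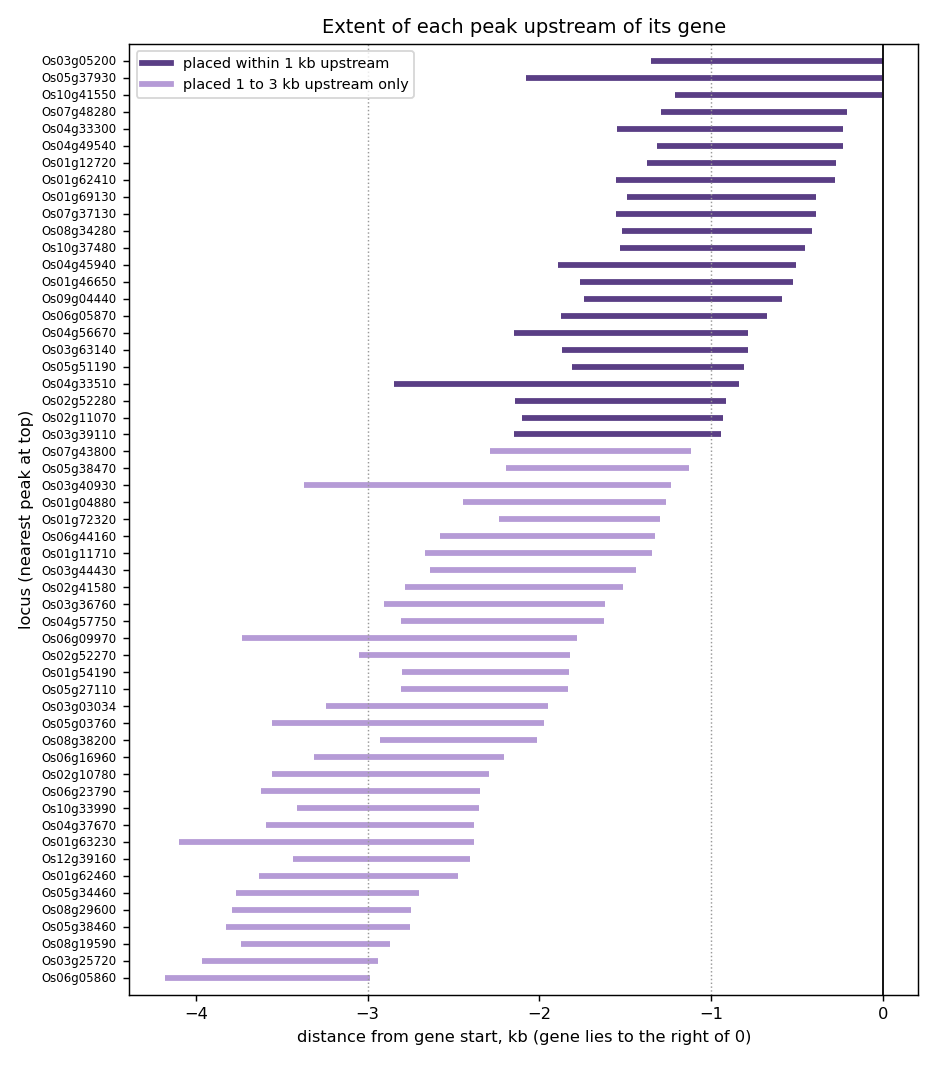
Horizontal bars show the extent of the peak upstream of each of the 55 genes, with distance from the gene start in kb on the x axis and genes ordered by gap from nearest (top) to farthest (bottom). Dark bars are the 23 genes placed within 1 kb upstream, light bars the 32 placed within 3 kb only, and the gaps run from 0 to 2984 bp.

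The border between an upstream peak and an overlapping one was thin for a few genes. The peak nearest to a gene start belonged to LOC_Os03g05200, which encodes a DENN domain protein, a domain known from regulators of Rab GTPases in membrane traffic. The last base of its gene model (chromosome 3, 2516859 to 2525960) was the first base of peak 62 (2525960 to 2527309). Peak 108 (chromosome 5, 22241635 to 22243707) left a gap of 2 bp to LOC_Os05g37930, and peak 168 (chromosome 10, 22327670 to 22328872) a gap of 5 bp to LOC_Os10g41550. Just outside the choice lay LOC_Os02g06640, described as similar to polyubiquitin, whose gene model shared 33 bp with its peak. At the far limit, the largest gap was 2984 bp, at LOC_Os06g05860, and peaks farther than 3 kb from a gene were not analysed here. The placement also depends on the gene model used, since the peaks of 6 genes reached into the interval that the expression table gives for the same locus. This interval can be wider than the gene model. For LOC_Os03g05200, 1 of the 6, both end at the same base, which the peak shares.

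In the main comparison more of these genes were higher than lower in MIM396 panicles. Of the 55, 49 had a mean of at least 1 FPKM over both libraries, and 4 of these passed with 1 library under 1 FPKM. A gene was called higher or lower when the log2 ratio of (FPKM + 1), MIM396 over wild type, was at least 1 in size, which is a limit of size and not a test. By this rule 15 genes were higher by 2-fold or more in MIM396 panicles, 7 were lower by 2-fold or more, and 27 were within these limits. The higher genes were 30.6% and the lower ones 14.3% of the 49, and among all 19456 loci with the same minimum 23.1% were higher and 27.3% lower. The median log2 ratio of the 49 genes was 0.59, with quartiles of -0.11 and 1.12. All 19456 loci had a median of 0.00, with quartiles of -1.16 and 0.91. The log2 ratio was above 0 for 35 of the 49 genes and for 9726 of the 19456 loci.

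Scaling changed these counts. With the libraries brought to equal totals, 27 genes were higher and 7 lower, while 40.3% of all loci were higher and 19% lower. The median of the genes then stood at 1.30 and that of all loci at 0.69, so the genes lay 0.62 above all loci, and 0.59 above them with the authors' scaling. The genes overlapped by a peak had 21 loci higher and 17 lower of 66 past the minimum, with a median of 0.24. Loci with only a downstream peak had 6 higher and 9 lower of 28, with a median of -0.06. With equal totals the overlapped genes had 30 higher and 11 lower, with a median of 0.90, and the loci with only a downstream peak 12 higher and 7 lower, with a median of 0.72. These classes are set side by side, and their difference was not tested. In the authors' deposited table, 2 of the 55 genes had an adjusted p-value (FDR) under 0.05, LOC_Os01g11710 and LOC_Os07g43800, and 4.95% of all loci did.

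**Figure D2:**
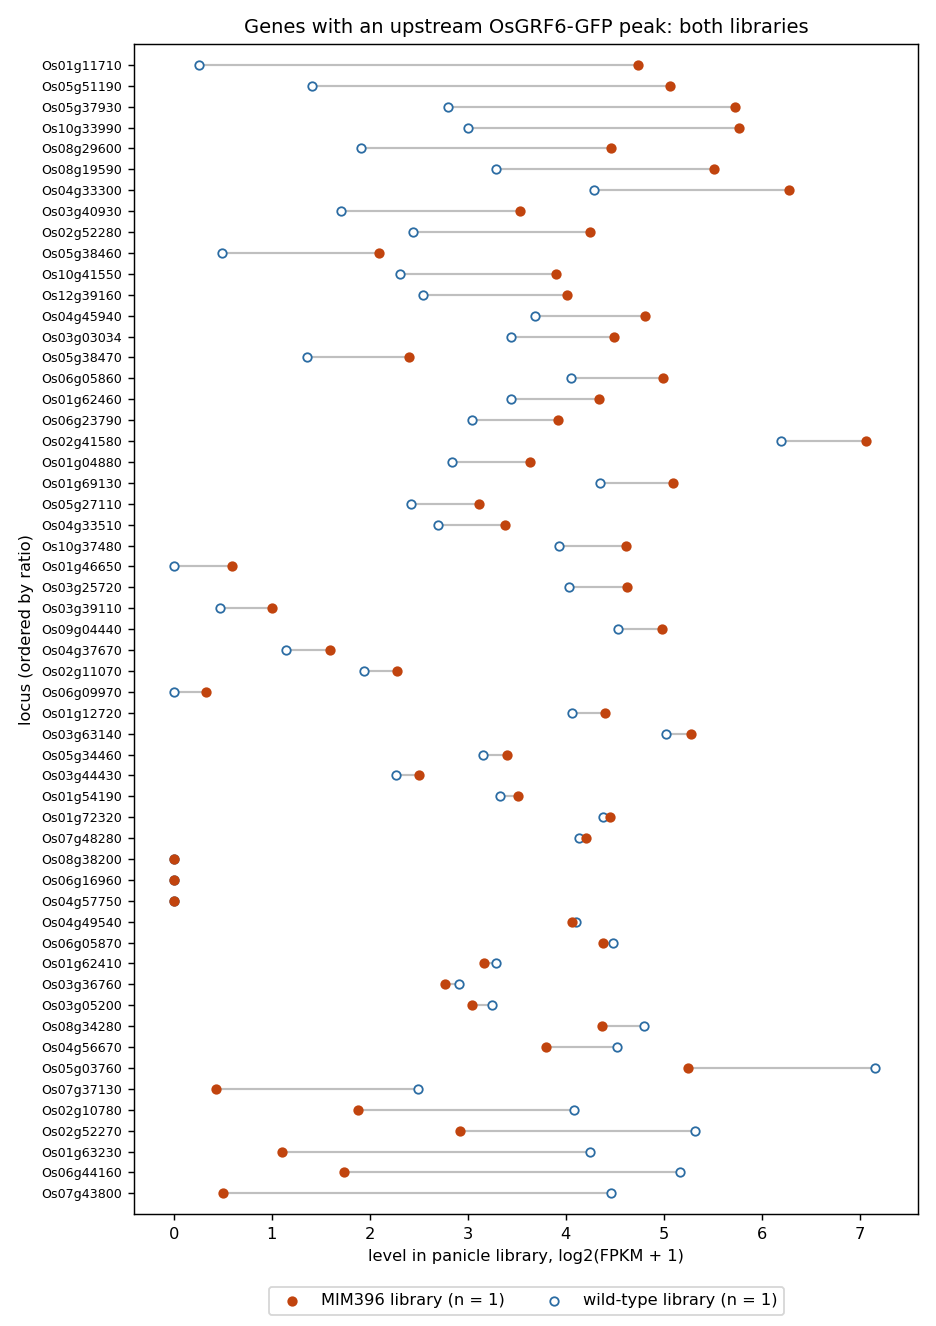
Each row is 1 of the 55 genes, with its level as log2(FPKM + 1) on the x axis in the MIM396 library (filled) and in the wild-type library (open), 1 library each and no replicate error. From the top, 15 genes are at least 2-fold higher in MIM396. The 7 rows at the bottom are at least 2-fold lower, and 3 rows between have 0 reads in both libraries.

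The largest difference upward was at an esterase gene. LOC_Os01g11710 (chromosome 1, gene models from 6319130 to 6322451) is annotated as an SGNH hydrolase of the GDSL lipase type, enzymes that cleave ester bonds, and peak 7 (6316463 to 6317787) ended 1342 bp before it. It had 25.7 FPKM in the MIM396 library and 0.199 FPKM in the wild-type library, from 806 and 5 reads. The ratio of scaled reads was 129, with an interval of 54.9 to 398. All intervals are 95% exact conditional binomial intervals and cover counting error only, since reads are not independent molecules. They use the authors' scaling, so a ratio near 1 can change sides of 1 with equal totals.

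The next was a gene with a protein kinase domain, LOC_Os05g51190 (chromosome 5, 29359930 to 29364139), with peak 110 (29364950 to 29365947) at a gap of 810 bp. It had 32.4 FPKM in the MIM396 library and 1.66 FPKM in the wild-type library, from 1869 and 77 reads, and a ratio of 19.4 (15.4 to 24.7). The conserved hypothetical gene LOC_Os05g37930 (chromosome 5, 22238995 to 22241632), with peak 108 at its start, had 52.0 FPKM in the MIM396 library and 5.96 FPKM in the wild-type library, from 2055 and 189 reads. Its ratio was 8.68 (7.48 to 10.1). LOC_Os10g33990 (chromosome 10, 18129498 to 18130451), which carries a domain of unknown function named DUF584, had 53.6 FPKM in the MIM396 library and 7.004 FPKM in the wild-type library, from 355 and 38 reads, and a ratio of 7.46 (5.33 to 10.7).

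A seed maturation type gene and a homeobox gene completed the 6 highest. LOC_Os08g29600, similar to seed maturation protein PM41 (a protein class known from late seed development), had 21.0 FPKM in the MIM396 library and 2.77 FPKM in the wild-type library, from 148 and 16 reads. The homeobox gene LOC_Os08g19590 had 44.6 FPKM in the MIM396 library and 8.75 FPKM in the wild-type library, from 2247 and 356 reads, and a ratio of 5.04 (4.50 to 5.65). The peaks of both were far from the gene, at 2746 and 2872 bp.

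The lowest ratio belonged to a calcium-binding type gene. LOC_Os07g43800 (chromosome 7, 26208537 to 26209455) encodes an EF-hand protein, a class that binds calcium and often relays calcium signals, and peak 135 (26206248 to 26207417) ended 1119 bp before it. It had 0.421 FPKM in the MIM396 library and 21.0 FPKM in the wild-type library, from 6 and 242 reads. Its ratio was 0.0198 (0.00719 to 0.0437).

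The 2 members annotated as DnaJ-type co-chaperones, proteins that help Hsp70 fold other proteins, were both among the lowest. Among all loci past the minimum 27.3% were lower, so 2 genes say little about co-chaperones as a class. LOC_Os06g44160 (chromosome 6, 26646375 to 26647794) had 2.33 FPKM in the MIM396 library and 34.9 FPKM in the wild-type library, a ratio of 0.0619 (0.0418 to 0.0887). LOC_Os02g52270 (chromosome 2, 32001621 to 32004050) had 6.57 FPKM in the MIM396 library and 39.0 FPKM in the wild-type library, from 79 and 360 reads, and a ratio of 0.175 (0.136 to 0.224). Their peaks lay 1326 and 1823 bp upstream.

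The other 4 lower genes had unlike annotations. LOC_Os01g63230 carries a GDP-fucose protein O-fucosyltransferase domain, which marks enzymes that attach fucose to proteins, and had 1.15 FPKM in the MIM396 library and 18.0 FPKM in the wild-type library. Another locus overlaps its interval in the expression table, so its reads may be shared. LOC_Os02g10780 has an SPX domain, known from plant proteins that sense phosphate status, and had 2.69 FPKM in the MIM396 library and 15.995 FPKM in the wild-type library, a ratio of 0.167 (0.123 to 0.223). LOC_Os07g37130, of the equilibrative nucleoside transporter family, had 0.351 FPKM in the MIM396 library and 4.65 FPKM in the wild-type library, from 9 and 96 reads. It was the only lower gene with a peak within 1 kb, at 389 bp. LOC_Os05g03760 is named in the annotation as a CCCH-type zinc finger gene with ankyrin repeats. It had 37.1 FPKM in the MIM396 library and 142 FPKM in the wild-type library, from 1548 and 4746 reads.

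Regulators of transcription were 6 of the 55 genes by the words of their annotation, with 2 higher, 1 lower and 3 neither. Besides the homeobox gene and the CCCH gene given above, they were a GRAS gene, a pair of MYB-type genes and a gene taken in through its zinc finger. The homeobox gene LOC_Os08g19590 (chromosome 8, 11702643 to 11711035) also has a START lipid-binding domain, a combination found in plant homeodomain-leucine zipper factors. LOC_Os01g62460, similar to Scarecrow-like 9, belongs to the GRAS family, plant regulators known from root patterning and hormone signalling. It had 19.2 FPKM in the MIM396 library and 9.86 FPKM in the wild-type library, just under the 2-fold limit at a log2 ratio of 0.90. LOC_Os05g38460, a c-myb type gene, had 3.26 FPKM in the MIM396 library and 0.407 FPKM in the wild-type library, from 140 and 14 reads, and a ratio of 7.99 (4.60 to 15.0).

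The annotation names LOC_Os01g62410 as OsMYB3R2, a factor with R1R2R3 MYB repeats and a role in stress tolerance. Factors of this class are known to bind promoters of cell cycle genes in plants. Peak 29 (chromosome 1, 36121234 to 36122507) ended 278 bp before its gene model (36122786 to 36128441). Its level was 7.96 FPKM in the MIM396 library and 8.77 FPKM in the wild-type library. With the authors' scaling the interval of the ratio, 0.772 to 1.04, included 1. LOC_Os01g72320, with RCC1 repeats, a FYVE-type zinc finger and a Brevis radix-like domain, was likewise near equal with that scaling. It had 20.9 FPKM in the MIM396 library and 19.8 FPKM in the wild-type library. With equal totals the median log2 ratio of all loci stood at 0.69, so near equality at both genes depends on the scaling.

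Signalling words matched 12 genes, of which 2 were higher, 1 was lower, 8 were neither and 1 was under the minimum. With equal totals 8 were higher and 1 was lower. The annotation of 4 of them names a protein kinase, an enzyme that passes signals by phosphorylating proteins. All 4 had more FPKM in the MIM396 library, with 1 past the 2-fold limit and, with equal totals, 4 past it. Among all loci past the minimum, 23.1% were higher with the authors' scaling and 40.3% with equal totals. Of the 49 genes past the minimum, 27 were higher with equal totals. Beside LOC_Os05g51190 the protein kinase genes were a receptor kinase type gene, a PEPC kinase type gene and a serine/threonine kinase gene. LOC_Os01g12720, similar to somatic embryogenesis receptor kinases, had 20.1 FPKM in the MIM396 library and 15.8 FPKM in the wild-type library. LOC_Os02g41580, similar to PEPC kinase, which phosphorylates phosphoenolpyruvate carboxylase, had 132 FPKM in the MIM396 library and 72.4 FPKM in the wild-type library, the highest MIM396 level of the 55 genes. LOC_Os10g37480 had 23.4 FPKM in the MIM396 library and 14.3 FPKM in the wild-type library.

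Other matches of the signalling words had various roles. LOC_Os04g33300, annotated with uridylate kinase activity, a step of pyrimidine nucleotide synthesis, had 76.8 FPKM in the MIM396 library and 18.5 FPKM in the wild-type library, a ratio of 4.12 (3.71 to 4.59). Peak 88 (chromosome 4, 20137628 to 20138944) ended 230 bp before its gene model and reached 66 bp into its interval in the expression table. LOC_Os01g69130, similar to dynamin-related protein 3A, which in Arabidopsis divides mitochondria and peroxisomes, had 33.2 FPKM in the MIM396 library and 19.5 FPKM in the wild-type library. LOC_Os09g04440, a DEAD-like helicase gene matched through the word triphosphatase, had 30.6 FPKM in the MIM396 library and 22.2 FPKM in the wild-type library.

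With the authors' scaling, enzymes outside signalling lay on both sides of equality, with the fucosyltransferase type gene given above as the lowest. LOC_Os10g41550, with a glycoside hydrolase domain and beta-amylase activity in its annotation (an activity that releases maltose from starch), had 14.0 FPKM in the MIM396 library and 3.97 FPKM in the wild-type library, a ratio of 3.50 (2.85 to 4.32). LOC_Os03g03034, similar to flavanone 3-hydroxylase, an oxygenase of flavonoid synthesis, had 21.5 FPKM in the MIM396 library and 9.86 FPKM in the wild-type library. LOC_Os02g11070, similar to fatty acid elongase 1, an enzyme class that makes very-long-chain fatty acids, had 3.84 FPKM in the MIM396 library and 2.84 FPKM in the wild-type library. LOC_Os08g34280 is similar to cinnamoyl-CoA reductase, an enzyme of lignin precursor synthesis. Its level was 19.7 FPKM in the MIM396 library and 26.9 FPKM in the wild-type library, a ratio of 0.728 (0.642 to 0.825). Its log2 ratio of -0.43 was smaller in size than the median of 0.69 that all loci had with equal totals. The side of equality on which this gene lies therefore depends on the scaling.

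Over the whole list of other enzymes, 4 of 14 genes were higher, 1 was lower, 7 were neither and 2 were under the minimum, and with equal totals 7 were higher and 1 lower. The cell wall and carbohydrate words matched 3 genes already given, the esterase and the beta-amylase type gene, both higher, and the fucosyltransferase type gene, which was lower. The chromatin, replication, cell cycle and cytoskeleton words matched 3 genes, of which 2 were higher and 1 neither, but the esterase and LOC_Os03g03034 were taken in because the word acting in their terms contains actin. LOC_Os03g36760, with a plant mobile domain, had 5.83 FPKM in the MIM396 library and 6.53 FPKM in the wild-type library.

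Genes of protein turnover and translation were within the 2-fold limit, also with equal totals. LOC_Os05g34460, a DegP-type serine peptidase gene, had 9.56 FPKM in the MIM396 library and 7.95 FPKM in the wild-type library. LOC_Os03g44430, described as a peptidase of ubiquitin carboxyl-terminal hydrolase type but annotated with an ELM2 and an organelle RNA recognition domain, had 4.66 FPKM in the MIM396 library and 3.81 FPKM in the wild-type library. LOC_Os04g56670, similar to a small-subunit ribosomal protein, had 12.9 FPKM in the MIM396 library and 21.98 FPKM in the wild-type library. The degradation words matched 3 genes and the RNA words 3 genes, none past the limit in either direction, except that 2 of the RNA list were higher with equal totals. LOC_Os01g72320 came into the degradation list through a RING-type zinc finger entry, and the dynamin gene into the RNA list through the phrase splice isoform.

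Stress and defence words matched 3 genes, of which 1, the seed maturation type gene, was higher and 2 were neither. LOC_Os03g63140, similar to NOI protein, a family cleaved by some bacterial effectors, had 37.9 FPKM in the MIM396 library and 31.5 FPKM in the wild-type library. The words for plant hormones matched none of the 55 genes. The loci left out by name, 4 of which met the same placement, were not searched. The absence therefore holds only for the genes kept. The transport and membrane words matched 3 genes, with the nucleoside transporter lower, the elongase neither and the early nodulin-like gene LOC_Os04g57750 at 0 reads in both libraries.

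The annotation of 21 genes matched no functional list, most of them hypothetical or with a domain of unknown function, but the SPX and DENN genes among them. Of the 18 past the minimum 7 were higher, 1 was lower and 10 were neither, and with equal totals 12 were higher and 1 lower. Of the 34 genes in a functional list, 31 passed the minimum, with 8 higher, 6 lower and 17 neither. The domain of unknown function DUF620 occurred in 2 genes, the only loci of the whole peak table that carry it, and both were higher. This pair was picked after its values were seen. Among all loci past the minimum 23.1% were higher, and DUF620 loci away from peaks were not analysed here. LOC_Os03g40930 had 10.5 FPKM in the MIM396 library and 2.26 FPKM in the wild-type library, a ratio of 4.65 (3.55 to 6.18). LOC_Os12g39160 had 15.2 FPKM in the MIM396 library and 4.85 FPKM in the wild-type library, a ratio of 3.12 (2.60 to 3.75). Their peaks, 70 and 199, lay 1230 and 2402 bp upstream of the gene models. The distance depends on the model for LOC_Os12g39160. Its gene model ends at 24088344, its interval in the expression table at 24089974, and peak 199 begins at 24090747. The hypothetical gene LOC_Os04g45940 had 27.0 FPKM in the MIM396 library and 11.9 FPKM in the wild-type library.

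With the authors' scaling, most of the remaining genes matched by no list had log2 ratios of 0.07 to 0.88. The DENN gene and LOC_Os04g49540 lay below 0 with that scaling. LOC_Os06g23790, LOC_Os01g04880, LOC_Os05g27110 and LOC_Os04g33510 had log2 ratios of 0.88, 0.79, 0.69 and 0.68. LOC_Os03g25720, of the hepatocellular carcinoma-associated antigen 59 family, had 0.59, LOC_Os04g37670 had 0.45, LOC_Os01g54190 had 0.18 and LOC_Os07g48280 had 0.07. LOC_Os04g49540 had -0.04, with 15.8 FPKM in the MIM396 library and 16.2 FPKM in the wild-type library. Another locus overlaps the interval of LOC_Os01g04880 in the expression table, and likewise that of LOC_Os04g49540, so the reads of both genes may be shared.

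The 6 genes under the minimum included 5 with at most 2 reads in either library. An O-methyltransferase type gene (LOC_Os06g16960), the early nodulin-like gene (LOC_Os04g57750) and a phosphatidylinositol kinase type gene (LOC_Os08g38200) had 0 reads in both libraries, a count that allows up to 3 reads in each. LOC_Os01g46650 had 2 reads in the MIM396 library and 0 in the wild-type library, and LOC_Os06g09970 had 1 read in the MIM396 library and 0 in the wild-type library. LOC_Os03g39110 had 26 reads in the MIM396 library and 8 in the wild-type library. Its ratio was 2.60 (1.14 to 6.63), while at the other 5 genes a difference was not detectable at this depth.

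In 3 cases a single peak lay between a pair of these genes that point away from each other. At peak 58 (chromosome 2, 32005874 to 32007102) the partners differed in direction. The conserved hypothetical gene LOC_Os02g52280, 911 bp from the peak, had 18.1 FPKM in the MIM396 library and 4.45 FPKM in the wild-type library, a ratio of 4.05 (3.52 to 4.66), whereas its DnaJ-type partner LOC_Os02g52270 was lower, as given above. At peak 109 (chromosome 5, 22563759 to 22564828) both were higher, the c-myb type gene LOC_Os05g38460 and the hypothetical gene LOC_Os05g38470, which had 4.28 FPKM in the MIM396 library and 1.56 FPKM in the wild-type library. At peak 112 (chromosome 6, 2683257 to 2684451) neither passed the limit. The phosphofructokinase type gene LOC_Os06g05860, an enzyme class of glycolysis, had 30.8 FPKM in the MIM396 library and 15.6 FPKM in the wild-type library. Its partner LOC_Os06g05870, similar to a dual specificity phosphatase, had 19.8 FPKM in the MIM396 library and 21.4 FPKM in the wild-type library. The expression table gives this last pair the same interval, so their reads may be divided between them.

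Many peaks also stood at other genes, which limits how far a peak can be assigned. For 24 of the 55 genes no other gene model was listed at the peak, and for 31 at least 1 other was. Of the 24, 22 passed the minimum, with 8 higher, 2 lower and 12 neither. Of the 31, 27 passed, with 7 higher, 5 lower and 15 neither. The peaks of 11 genes overlapped another gene model. Of these 11, 7 passed the minimum, with 0 higher, 2 lower and 5 neither. Among all loci past the minimum 23.1% were higher and 27.3% lower. Of the 44 genes whose peak overlapped no other gene, 42 passed, with 15 higher, 5 lower and 22 neither. With equal totals 4 of the 7 and 23 of the 42 were higher, so the absence of higher genes at such peaks held with the authors' scaling and not with equal totals. The difference between these sets was not tested.

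Neighbouring RGAP loci outside the set were listed at the peaks of 15 genes, as 16 pairs. With the authors' scaling none of the 15 genes called higher had such a neighbour. Few of the 55 genes had one at all, and among all loci past the minimum 23.1% were higher. Whether this absence is particular to the higher genes was not tested. Gene models without an RGAP name were not counted here, and 7 of the higher genes had another gene model at the peak, pair partners included. Of the 5 pairs with a lower gene, the neighbour was lower in 3, higher in 1 and neither in 1, and 2 of the 3 pairs share the gene LOC_Os06g44160 and its peak. All values here are FPKM. At peak 102 (chromosome 5, 1658462 to 1660049) the CCCH-type gene LOC_Os05g03760 was lower, and LOC_Os05g03750, for which the peak is downstream, had 0.663 in the MIM396 library and 275 in the wild-type library. At peak 124 the DnaJ-type gene LOC_Os06g44160 had LOC_Os06g44180, similar to an NADPH HC toxin reductase, as a neighbour with 0.692 in the MIM396 library and 13.2 in the wild-type library. Its other neighbour LOC_Os06g44170, which the peak overlaps, had 0.617 in the MIM396 library and 16.2 in the wild-type library. The opposite direction was seen at peak 33, where the fucosyltransferase type gene LOC_Os01g63230 was lower and the reticulon gene LOC_Os01g63240 had 11.1 in the MIM396 library and 0.967 in the wild-type library.

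At other peaks the neighbour passed the 2-fold limit and the upstream-peak gene did not, with the authors' scaling. Peak 64 (chromosome 3, 14728167 to 14729192) overlapped LOC_Os03g25750, a SNARE associated Golgi protein gene, which had 9.20 FPKM in the MIM396 library and 1.84 FPKM in the wild-type library. LOC_Os03g25720, 2938 bp from the same peak, had 23.6 FPKM in the MIM396 library and 15.3 FPKM in the wild-type library, a ratio of 1.53 (1.35 to 1.74). At peak 62 the DENN gene LOC_Os03g05200 had 7.23 FPKM in the MIM396 library and 8.48 FPKM in the wild-type library, a ratio of 0.856 (0.749 to 0.979), while LOC_Os03g05210, a WD40 repeat gene, had 0.156 FPKM in the MIM396 library and 2.18 FPKM in the wild-type library. At peak 66 LOC_Os03g36760 was neither, while LOC_Os03g36750, for which the peak is downstream, had 2.08 FPKM in the MIM396 library and 292 FPKM in the wild-type library. The opposite case was peak 131 (chromosome 7, 22246880 to 22248045), where the nucleoside transporter gene was lower and LOC_Os07g37140, a WRC domain gene overlapped by the peak, was neither.

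The expression ratio showed no clear order by distance. Of the 21 genes past the minimum with a peak within 1 kb, 6 were higher, 1 was lower and 14 were neither, with a median log2 ratio of 0.33. Of the 28 with a peak at 1 to 3 kb, 9 were higher, 6 lower and 13 neither, with a median of 0.74. With equal totals 11 of the 21 and 16 of the 28 were higher. Across the 49 genes, the gap and the log2 ratio had a Spearman rho of 0.14 and a Pearson r of 0.02, given as a description, since all points share the same libraries.

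**Figure D3:**
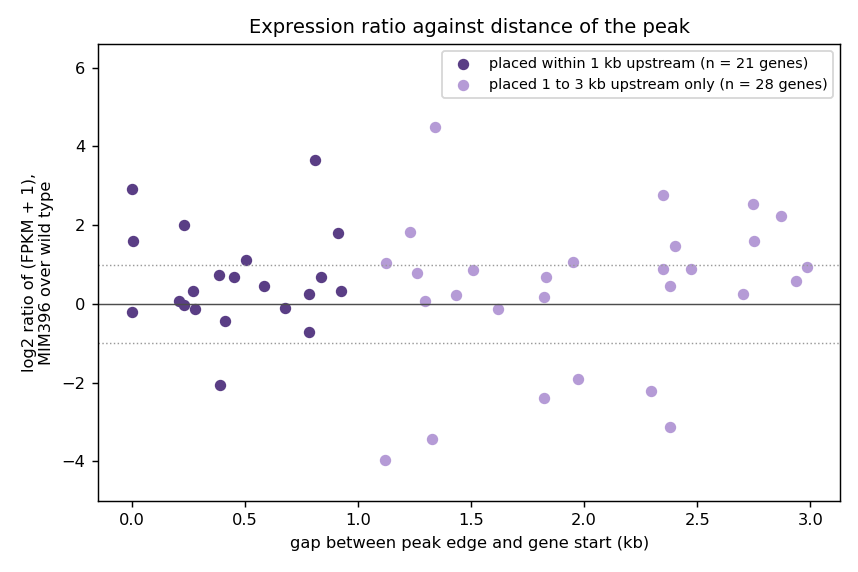
Points are the 49 genes with a mean of at least 1 FPKM, with the gap between peak edge and gene start in kb on the x axis and the log2 ratio of (FPKM + 1), MIM396 over wild type, on the y axis. Dotted lines mark the 2-fold limits. Of the 7 points under the lower line, 1 has its peak within 1 kb and 6 have it at 1 to 3 kb.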

How the data were processed

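Peaks came from 1 ChIP library and were deposited by the authors as positions beside RAP gene models, under names of the peak caller MACS. FastQC and Bowtie appear in the submitters' processing notes. Genome build, annotation and counting tool were not given in the sources used here. FPKM per library, computed by the authors, and read signal values, which the authors scaled by a constant for each library, as the values show, make up the expression table. Steps of 0.844 (MIM396) and 1.057 (wild type) gave reads within 0.01 of a whole number for 99% and 98.5% of positive values. The adjusted p-value (FDR) was deposited by the authors without the name of its test.

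From these, log2((MIM396 FPKM + 1)/(wild-type FPKM + 1)) was computed, with a minimum mean of 1 FPKM and a limit of 1 in size. Ratios of scaled reads carry 95% exact conditional binomial (Clopper-Pearson) intervals. With 1 library per group no count model could be run and no test was made. The gap was measured from the peak edge to the nearest start of a gene model of the locus. Annotation lists were word searches over the full annotation text. The rule for named genes took members of functional lists with a mean of at least 1 FPKM, the 6 highest and 6 lowest ratios with reads, pairs at 1 peak and the shortest and longest gaps. Other members were named besides, after their values were seen, so that each is accounted for. The members and lists were chosen with earlier results of these data known. No sequence is printed, since no sequence of these genes was used here. Calculations used Python 3.11.15, pandas 2.3.3, numpy 2.4.6 and scipy 1.17.1, and the size rule and intervals were tested on simulated data.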

Additional observations from a re-analysis of the deposited data

How the results depend on the processing

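The counts of genes higher and lower (15 and 7) were within 1.5 times with a pseudocount of 0.1 FPKM, no minimum, a minimum of 5 FPKM, TMM and median-of-ratios factors, the left-out loci put back, and shared intervals or peaks over other genes left out. Leaving out the 6 genes whose peak reaches into their own interval, an alternative chosen after seeing the data, gave 13 and 7. Equal totals gave 27 higher and a median of 1.30, and equal totals without the 50 most abundant loci of each library gave 25 and 1.02, because all loci shifted upward by 0.69 and 0.41. Counting peaks within 1 kb only left 6 higher and 1 lower with a median of 0.33, and peaks at 1 to 3 kb only left 9 higher and 6 lower. The first holds 21 and the second 28 of the 49 genes, and the cause of the different medians and lower counts was not tested. The 12 genes with the largest differences kept their direction and the 2-fold limit in all 60 values under other pseudocounts and scalings. Their choice as extremes largely fixed this outcome, since their smallest log2 ratio in size was -2.06 and equal totals moved all loci by 0.69. It does not show how stable the smaller ratios are. No gene had a downstream placement, so leaving such genes out changed nothing. No paired analysis was possible because each group held 1 library, and for the same reason no library could be left out. Depth limits the genes with few reads, as the width of their intervals shows.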
